A study of Saccharomyces cerevisiae with 9 samples.

Results

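The genes described here are 10 genes of gluconeogenesis, the glyoxylate cycle and the use of carbon sources other than glucose in budding yeast. They were taken by name from the 7036 genes of the deposited tables. The rule that picked them uses no measured value, but it was set with earlier results of these data known. All 10 passed the filter on low counts in promoter and gene body windows alike. PCK1 (YKR097W), FBP1 (YLR377C), ICL1 (YER065C), MLS1 (YNL117W) and MDH2 (YOL126C) encode enzymes of gluconeogenesis and the glyoxylate cycle. ACS1 (YAL054C), ADH2 (YMR303C), SFC1 (YJR095W), JEN1 (YKL217W) and FDH1 (YOR388C) encode enzymes and transporters that handle ethanol, acetate, lactate, formate and the succinate that the glyoxylate cycle yields, so the group is wider than the pathways in its name.

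Gluconeogenesis runs much of glycolysis backwards and builds glucose phosphates from small organic acids, with PCK1 and FBP1 at the steps that glycolysis cannot reverse. The glyoxylate cycle bypasses the steps of the tricarboxylic acid cycle that release carbon dioxide, so that acetate units can be turned into such acids. In yeast grown on glucose these genes are repressed, in part through the repressor Mig1, and on loss of glucose the kinase Snf1 and the activators Cat8 and Adr1 turn most of them on.

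ChIP-seq, the sequencing of DNA that is pulled down with a chosen protein, was applied to cells of the W303 strain, grown in log phase at 30 degrees, washed, and held for 10 min in synthetic medium without glucose. Each strain carried a TAP tag, which rabbit IgG binds, on Rvb1, Rvb2 or Pgk1. Rvb1 and Rvb2 are related ATPases of chromatin remodelling complexes, and Pgk1, a glycolytic enzyme, is the control protein. Each tagged strain gave 2 pulldowns and 1 input of unselected chromatin, so there were 9 libraries, all from starved cells. Cells in glucose and cells without a tag were not analysed here, so no value below measures a response to starvation. The sources used here do not give the number of clones per strain or the site of each tag. Whether a strain's pulldowns came from different cultures is not stated either, so p-values reflect the spread among these libraries, which may be technical.

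The values are deposited read counts in promoter and gene body windows of 500 bp. Among the pulldowns the smallest promoter total was 806134 (Pgk1 replicate 1) and the largest 2516799 (Pgk1 replicate 2), and the inputs held 4342277 to 4636420. Counts stop near 1148 per window, the number of distinct 75-base reads that can touch 500 bp on both strands. The promoter windows of the 10 genes reached 40.6% to 62.4% of this ceiling in the inputs and 7.23% to 47.8% in the pulldowns, so counts near it understate differences, above all in the inputs. Levels below are in CPM, counts relative to library size after TMM scaling within each table, and fold changes are log2 values with a standard error (SE) from edgeR's quasi-likelihood test. A window is called where its p, adjusted over all windows of its table by the Benjamini-Hochberg method, is under 0.05. All groups share 1 estimate of the spread, so the inputs enter the SE and p of comparisons between pulldowns. With the pulldowns alone, none of the 10 promoters was called in Rvb1 over Pgk1.

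Compared with the control pulldown, the promoters of the 10 genes showed no common direction in Rvb1. ADH2 was called higher in Rvb1 than in Pgk1, SFC1 and FDH1 were called lower, and the other 7 genes were not called. These 3 calls among 10 genes stand beside 24.3% of all 7034 promoter windows called in the same comparison, 12.3% higher and 12.0% lower. The median log2 fold change was 0.0054 over the 10 genes and -0.0492 over all windows, and 5 of the 10 were positive. Of all windows, between 53.0% and 56.4% lay below 0, as the ranks of ACS1 at -0.01 and JEN1 at 0.02 show. In Rvb2 over Pgk1 edgeR called none of the 10 and 0 of all windows, with 1 of the 10 and 1227 of all windows at p under 0.05 before adjustment. DESeq2 called 0 of the 10 there as well. Both comparisons use the same Pgk1 libraries, so their values are not independent. Below, counts before adjustment and counts by DESeq2 are given without the share of all windows under the same rule. They therefore do not set the counted genes apart from other genes.

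**Figure D1:**
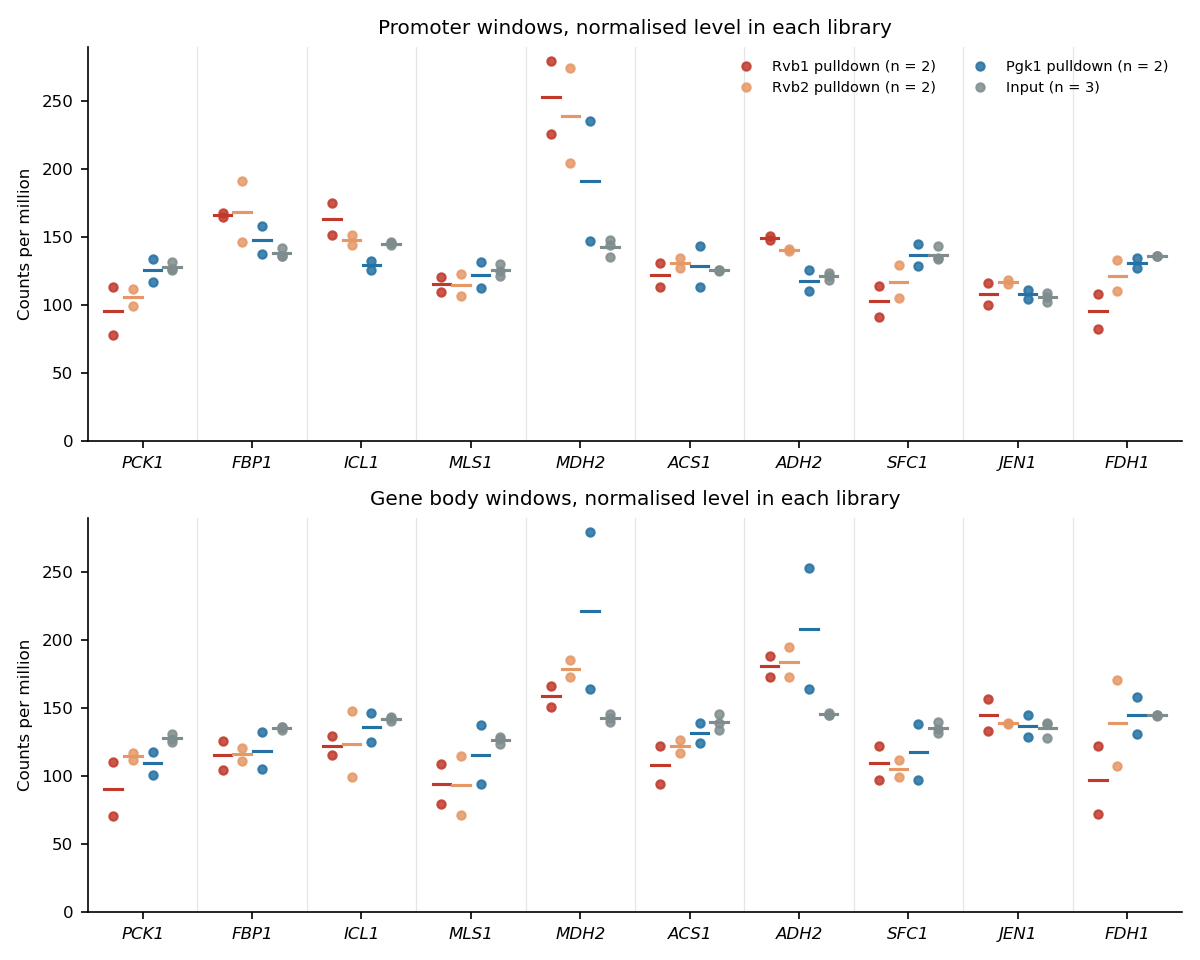
Promoter and gene body levels of the 10 genes in each of the 9 libraries, in CPM, with 1 point per library, coloured by group, a dash at each group's mean, and gene body levels in the second panel. Among the pulldowns MDH2 has the highest promoter levels, up to 279.8 CPM in Rvb1 replicate 1, while its inputs lie between 135 and 148 CPM.

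MDH2 encodes the cytosolic malate dehydrogenase, which serves both gluconeogenesis and the glyoxylate cycle. Its promoter held 279.8 and 226 CPM in the Rvb1 pulldowns, 274 and 204 in Rvb2, 235 and 147 in Pgk1, and 135, 144 and 148 in the inputs. The 4 Rvb libraries all stood above the inputs, but Pgk1 replicate 1 lay among the Rvb libraries and Pgk1 replicate 2 at the level of the inputs. Against Pgk1 the log2 fold change was 0.44 (SE 0.26, edgeR adjusted p = 0.198) in Rvb1 and 0.35 (SE 0.26, edgeR adjusted p = 0.459) in Rvb2. Neither was called. Without Pgk1 replicate 1 the Rvb1 value was 0.78 (edgeR adjusted p = 0.0383), and without Pgk1 replicate 2 it was 0.11.

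ICL1 and MLS1 encode isocitrate lyase and malate synthase, the enzymes particular to the glyoxylate cycle. The ICL1 promoter held 175 and 152 CPM in Rvb1, 152 and 144 in Rvb2, 126 and 133 in Pgk1, and 144 to 146 in the inputs. All 4 Rvb libraries stood above both Pgk1 libraries, and Rvb2 replicate 2 lay at the level of the inputs. The fold change over Pgk1 was 0.34 in Rvb1 (SE 0.12, edgeR adjusted p = 0.0536), just short of a call, and 0.18 in Rvb2 (SE 0.12). The MLS1 promoter ran from 107 to 132 CPM over all 9 libraries, its groups overlapped, and its fold changes were -0.13 (SE 0.13) and -0.12 (SE 0.14).

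PCK1 encodes phosphoenolpyruvate carboxykinase and FBP1 encodes fructose-1,6-bisphosphatase, the enzymes that set gluconeogenesis apart from glycolysis. The PCK1 promoter held 78.5 and 113 CPM in Rvb1, 99.3 and 112 in Rvb2, 134 and 117 in Pgk1, and 126 to 132 in the inputs. All 4 Rvb libraries lay below both Pgk1 libraries and the 3 inputs, with Rvb1 replicate 1 the lowest. The fold change over Pgk1 was -0.39 in Rvb1 (SE 0.19, edgeR adjusted p = 0.121) and -0.22 in Rvb2 (SE 0.19), and neither was called. The Rvb1 value was -0.11 without Rvb1 replicate 1 and -0.64 (edgeR adjusted p = 0.00663) without Rvb1 replicate 2. The FBP1 promoter held 165 and 168 CPM in Rvb1, 191 and 146 in Rvb2, 158 and 137 in Pgk1, and 136 to 142 in the inputs. Only Rvb1 stood clear of Pgk1 for FBP1, and its fold changes of 0.20 (SE 0.15) and 0.21 (SE 0.15) were not called. The values of PCK1 and FBP1 over Pgk1 differed in sign, but none of them was called.

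ADH2 encodes the alcohol dehydrogenase that oxidises ethanol, and ACS1 an acetyl-CoA synthetase that activates acetate. The ADH2 promoter held 148 and 151 CPM in Rvb1, 140.1 and 141 in Rvb2, 110.3 and 126 in Pgk1, and 118, 124 and 121 in the inputs. The 4 Rvb libraries lay close together and above all 5 other libraries. The fold change over Pgk1 was 0.29 in Rvb1 (SE 0.09, edgeR adjusted p = 0.0360), which was called, and 0.21 in Rvb2 (SE 0.10, edgeR adjusted p = 0.284), which was not. The ADH2 call stood in 7 of 20 alternative settings, and its value ranged from 0.25 to 0.44. At the ACS1 promoter the groups overlapped, between 114 and 144 CPM, and the fold changes were -0.01 (SE 0.12) and 0.10 (SE 0.12).

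SFC1 encodes the mitochondrial carrier that exchanges succinate for fumarate, and JEN1 the lactate and pyruvate permease of the plasma membrane. The SFC1 promoter held 91.7 and 114 CPM in Rvb1, 105 and 129.7 in Rvb2, 129 and 145 in Pgk1, and 134, 143 and 135 in the inputs. Both Rvb1 libraries lay below all Pgk1 and input libraries, and Rvb2 replicate 2 reached the lower Pgk1 library. The fold change over Pgk1 was -0.48 in Rvb1 (SE 0.13, edgeR adjusted p = 0.0229), which was called, and -0.24 in Rvb2 (SE 0.13), which was not. The JEN1 promoter had the lowest input levels of the group over windows of equal length, 103 to 109 CPM, and 101 to 119 CPM in the pulldowns, with fold changes of 0.02 (SE 0.18) and 0.13 (SE 0.18).

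FDH1 encodes formate dehydrogenase, which oxidises formate to carbon dioxide. Its promoter held 82.6 and 109 CPM in Rvb1, 110.4 and 133 in Rvb2, 128 and 135 in Pgk1, and 136 in each of the inputs. The Rvb1 libraries lay below all others, and the Rvb2 libraries overlapped Pgk1. The fold change over Pgk1 was -0.51 in Rvb1 (SE 0.14, edgeR adjusted p = 0.0231), which was called, and -0.11 in Rvb2 (SE 0.13), which was not. The direct comparison of Rvb1 with Rvb2 gave -0.40 for FDH1 (SE 0.14, edgeR adjusted p = 0.792), so a difference between the ATPases was not called.

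Counted by levels alone, 3 promoters of the 10 (FBP1, ICL1 and ADH2) had both Rvb1 libraries above both Pgk1 libraries and 3 (PCK1, SFC1 and FDH1) had both below, beside 28.4% and 28.2% of all windows and 24.3% called. In Rvb2, 3 (ICL1, ADH2 and JEN1) stood above and 1 (PCK1) below, beside 21.8% and 20.7% of all windows, of which 0% were called. An exact permutation test of 2 libraries against 2 cannot go below a two-sided p of 0.333. The 3 promoter calls in Rvb1 did not hold in every fit with 1 library left out: of 9 such fits ADH2 was called in 2, SFC1 in 6 and FDH1 in 5. None of the 10 promoters was called without Rvb1 replicate 1, where SFC1 stood at -0.31 and FDH1 at -0.30, without Pgk1 replicate 2 or without input 2, nor in the pulldowns alone, with inputs 1 and 2 averaged, or relative to each strain's own input, and 1 was called without input 1. With library sizes taken over both windows the split of all windows moved from 866 higher and 842 lower to 1318 higher and 584 lower, and 4 of the 10 promoters were called, 2 in each direction.

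**Figure D2:**
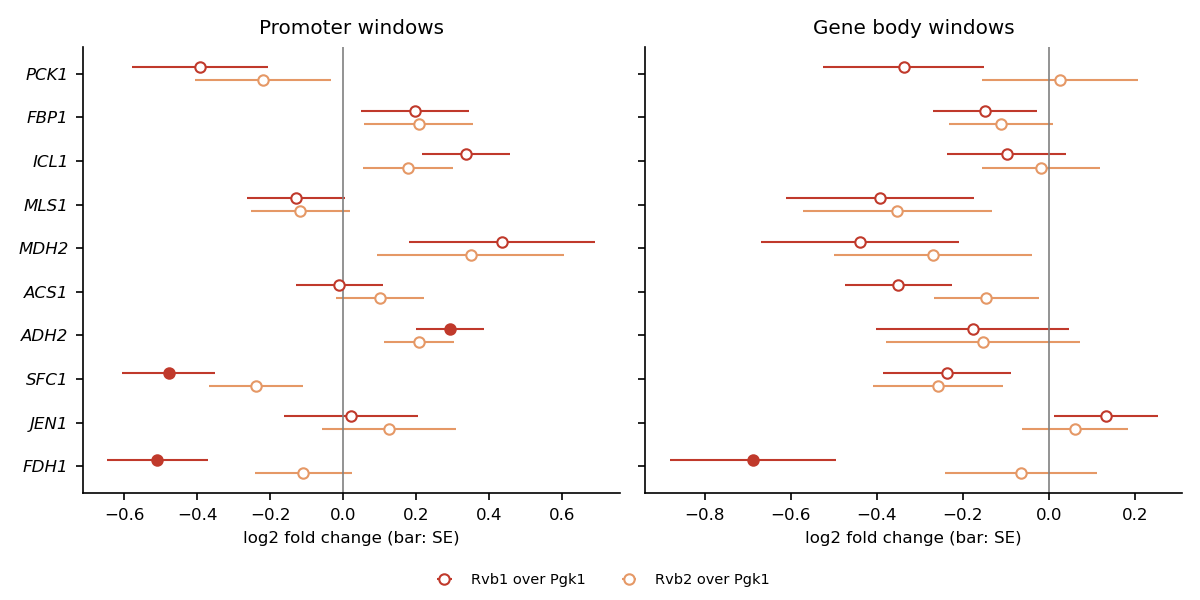
Log2 fold change over the Pgk1 pulldown for the promoter windows (first panel) and gene body windows (second panel) of the 10 genes, with bars of 1 SE. Filled points have an adjusted p under 0.05 and open points do not; in Rvb1, ADH2 is filled above 0 and SFC1 and FDH1 below 0 at promoters, and FDH1 alone at gene bodies.

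Averaging the Rvb proteins and setting them against Pgk1 gave 2 calls at promoters, ADH2 at 0.25 (SE 0.08, edgeR adjusted p = 0.0493) and SFC1 at -0.36 (SE 0.11, edgeR adjusted p = 0.0419), beside 16.3% of all windows, 8.62% higher and 7.68% lower. Both were close to the threshold, and of 20 alternative settings ADH2 was called in 5 and SFC1 in 7. With each library left out in turn the values ran from 0.21 to 0.39 for ADH2 and from -0.45 to -0.23 for SFC1. Directly compared, the Rvb1 and Rvb2 promoters gave 0 calls by edgeR among the 10 and 0% among all windows, with 1 of the 10, FDH1, at p under 0.05 before adjustment. DESeq2 called 0 of the 10 in that comparison.

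At gene bodies, values of the 10 genes in Rvb1 over Pgk1 were below 0 in 9 of 10, with JEN1 at 0.13 (SE 0.12) as the exception. Of all windows, between 44.2% and 69.8% lay below 0, as the ranks of ICL1 at -0.10 and of JEN1 show. The median of the 10 genes was -0.2877 and that of all windows, also below 0, was -0.0496. With single libraries left out, SFC1, FBP1 and ADH2 reached values above 0, up to 0.16, 0.11 and 0.14. The remaining genes kept their sign in these fits. FDH1 was the gene called, lower in Rvb1, beside 13.8% of all 7035 windows called, 6.70% higher and 7.08% lower. The FDH1 gene body held 72.5 and 123 CPM in Rvb1, 107 and 171 in Rvb2, 131 and 158 in Pgk1, and 144 to 145 in the inputs. Its fold change was -0.69 (SE 0.19, edgeR adjusted p = 0.0360), and the replicates differed widely within Rvb1 and within Rvb2. It was -0.31 without Rvb1 replicate 1 and -1.07 without Rvb1 replicate 2, and it was not called without Rvb1 replicate 1, Pgk1 replicate 2, input 1 or input 2, nor by DESeq2, with inputs 1 and 2 averaged, with a correction for the ceiling, or relative to the own input.

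The next largest gene body values, MDH2 at -0.44 (SE 0.23), MLS1 at -0.39 (SE 0.22), ACS1 at -0.35 (SE 0.13, edgeR adjusted p = 0.0630) and PCK1 at -0.34 (SE 0.19), were not called. With each library left out in turn they ran from -0.81 to -0.041 for MDH2, -0.67 to -0.016 for MLS1, -0.52 to -0.16 for ACS1 and -0.68 to -0.059 for PCK1. The smallest sizes came without Pgk1 replicate 1 for MDH2, without Pgk1 replicate 2 for MLS1, and without Rvb1 replicate 1 for ACS1 and PCK1. Only ACS1 and FDH1 had both Rvb1 libraries below both Pgk1 libraries, 2 of 10 beside 24.9% of all windows and 13.8% called, and 0 of 10 had both above, beside 23.8%. In Rvb2 over Pgk1 the groups overlapped at all 10 gene bodies, edgeR called 0 of 10 and 0% of all windows with 0 of the 10 at p under 0.05 before adjustment, and DESeq2 called 0 of the 10. For the mean of the Rvb proteins edgeR called 0 of the 10 beside 0.981% of all windows, 0.441% higher and 0.540% lower, with 2 of the 10 at p under 0.05 before adjustment and 0 called by DESeq2. Rvb1 against Rvb2 gave 0 calls by edgeR among the 10, beside 0% of all windows, with 1 at p under 0.05 before adjustment and 0 by DESeq2. The median over all gene bodies moved to -0.2117 with library sizes taken over both windows, the calls moved from 471 higher and 498 lower to 285 higher and 511 lower, and JEN1 went to -0.06, while the median of the 10 genes was -0.3985.

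The reads of MDH2 lay more at its promoter in all 4 Rvb pulldowns than in the other libraries. Of the reads in its 2 windows, the promoter held 68.9% (95% Wilson interval 65.6% to 72.0%) and 62.5% (57.9% to 66.8%) in Rvb1 and 63.8% (59.6% to 67.9%) and 55.6% (51.6% to 59.6%) in Rvb2. It held 46.5% (41.5% to 51.5%) and 47.0% (43.6% to 50.5%) in Pgk1 and 48.5% to 49.6% in the inputs. The 4 Rvb pulldowns therefore all stood above the other 5 libraries, and Pgk1 replicate 1, which was high in both windows of MDH2, had a share like that of the inputs. These intervals cover counting error within a library only.

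The ADH2 promoter held 53.0% and 47.1% of the gene's reads in Rvb1, 46.1% and 46.4% in Rvb2, 31.0% and 43.1% in Pgk1, and 44.3% to 45.1% in the inputs. JEN1 had 49.5% and 45.7% in Rvb1, 50.5% and 46.7% in Rvb2, 44.2% and 44.5% in Pgk1, and 42.5% to 43.8% in the inputs. MDH2, ADH2 and JEN1 were the 3 genes of the 10 with all 4 Rvb pulldowns above all 5 other libraries, beside 26.3% of 7035 genes. For the ADH2 share, Pgk1 replicate 1 lay far below every other library, and for ADH2 and JEN1 alike the lowest Rvb pulldown lay about 1 percentage point above the highest other library. Over all genes the median promoter share was 56.9% and 52.7% in Rvb1, 54.4% and 51.5% in Rvb2, 50.7% and 49.8% in Pgk1, and 49.5% to 49.7% in the inputs.

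**Figure D3:**
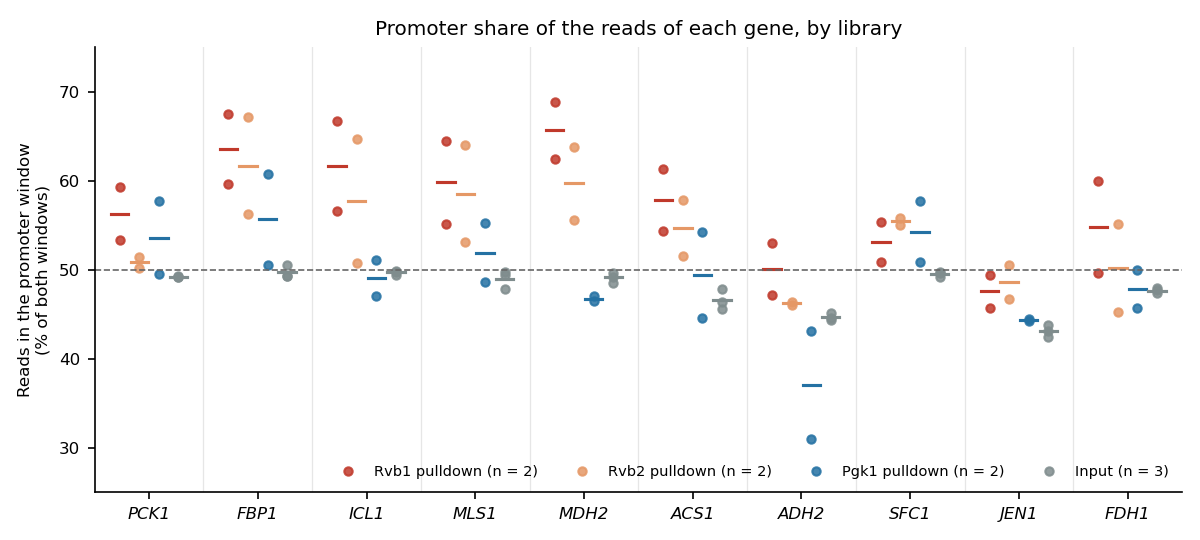
Share of each gene's reads that lay in the promoter window, in percent of the reads in both windows, with 1 point per library, a dash at each group's mean and a broken line at 50%. MDH2 has 55.6% to 68.9% in the 4 Rvb pulldowns and 46.5% to 49.6% in the other 5 libraries.

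The difference of the promoter and gene body fold changes was tested in a joint fit with the library as a block. In Rvb1 over Pgk1 it was called for MDH2, ADH2 and ACS1, 3 of 10, all higher at the promoter, beside 28.3% of 7035 genes called and 24.5% called in that direction. MDH2 had 1.15 (SE 0.18, edgeR adjusted p = 0.0179), a value above that of 99.3% of all genes. ADH2 had 0.67 (SE 0.21, edgeR adjusted p = 0.0417) and ACS1 0.65 (SE 0.20, edgeR adjusted p = 0.0386). ICL1 at 0.74 (SE 0.26, edgeR adjusted p = 0.0573), FBP1 at 0.62 (SE 0.25) and MLS1 at 0.60 (SE 0.22) were not called. FDH1 at 0.46, PCK1 at 0.27, JEN1 at 0.21 and SFC1 at 0.07 completed the order. The genes that face the 3 called ones across their promoters were called for the same difference, TRM13 next to MDH2 at 0.96 (SE 0.30, edgeR adjusted p = 0.0410), UBP15 next to ADH2 at 0.72 (SE 0.17, edgeR adjusted p = 0.0226) and FLC2 next to ACS1 at 0.63 (SE 0.18, edgeR adjusted p = 0.0313).

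All 10 values were above 0, as were 77.5% of those of all genes, and the median was 0.6117 over the 10 and 0.2813 over all. In Rvb2 over Pgk1 edgeR called 0 of the 10 and 0% of all genes. MDH2 there was the 1 gene of the 10 at p under 0.05 before adjustment, at 0.74 (SE 0.18, edgeR adjusted p = 0.199) and above 98.7% of all genes. DESeq2 was not run on this joint fit. For the mean of the Rvb proteins MDH2 alone was called, at 0.95 (SE 0.16, edgeR adjusted p = 0.0241), beside 15.8% of all genes, 13.7% higher.

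The size of the MDH2 difference held between 0.92 and 1.33 when each library was left out in turn. Its call in Rvb1 was lost without Rvb1 replicate 1 (edgeR adjusted p = 0.182), Pgk1 replicate 2 (0.0850), input 1 (0.0576) or input 2 (0.0564). The ADH2 difference was 0.42 without Pgk1 replicate 1 and 1.18 without Pgk1 replicate 2, and that of ACS1 was 0.22 without Pgk1 replicate 2, so both depended on which control library was kept. The calls were lost in these fits and without Rvb1 replicate 1, where ADH2 and ACS1 each stood at 0.43, or any of the inputs, where the values stayed at 0.70 for ADH2 and 0.59 for ACS1.

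Against the inputs, which are chromatin before pulldown, 5 of the 10 promoters were called in Rvb1, 2 higher and 3 lower, beside 51.8% of all windows, 25.4% higher and 26.4% lower. The value was 0.83 for MDH2 (SE 0.22, edgeR adjusted p = 0.00998) and 0.30 for ADH2 (SE 0.07, edgeR adjusted p = 0.00694). FDH1 at -0.54 (SE 0.11, edgeR adjusted p = 0.00514), SFC1 at -0.45 (SE 0.11, edgeR adjusted p = 0.00677) and PCK1 at -0.44 (SE 0.16, edgeR adjusted p = 0.0330) were lower. At gene bodies 5 were called, all lower in Rvb1, beside 48.9% of all windows, 23.2% higher and 25.7% lower: FDH1 at -0.62, PCK1 at -0.52, ACS1 at -0.39, SFC1 at -0.32 and FBP1 at -0.25. ADH2 and MDH2, the promoters called higher, had gene body values of 0.31 (SE 0.20) and 0.15 (SE 0.21) that were not called. Without Rvb1 replicate 1 none of these promoters and gene bodies was called. There the MDH2 promoter stood at 0.67 and that of ADH2 at 0.32, and PCK1 at -0.17 at the promoter and -0.22 at the gene body.

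In Rvb2 over the inputs edgeR called 0 of 10 promoters and 0% of all windows, with 3 of the 10 (MDH2, ADH2 and FBP1) at p under 0.05 before adjustment, and DESeq2 called 1. The Rvb2 values were 0.74 for MDH2 (SE 0.23, edgeR adjusted p = 0.0659), 0.27 for FBP1 (SE 0.13) and 0.22 for ADH2 (SE 0.08). At gene bodies edgeR called 0 of 10 and 0% of all windows for Rvb2, with 3 at p under 0.05 before adjustment and 0 by DESeq2. The control protein gave 0 calls by edgeR over the inputs at promoters, beside 0% of all windows, with 0 of the 10 at p under 0.05 before adjustment and 0 by DESeq2.

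At gene bodies, Pgk1 over the inputs gave 0 calls by edgeR, beside 0% of all windows, with MDH2 at 0.59 (SE 0.20, edgeR adjusted p = 0.310) and ADH2 at 0.49 (SE 0.20, edgeR adjusted p = 0.448) at p under 0.05 before adjustment. DESeq2 called 1 of the 10 there. The MDH2 gene body held 167 and 151 CPM in Rvb1, 185 and 173 in Rvb2, 279 and 164 in Pgk1, and 140 to 146 in the inputs. The ADH2 gene body held 173 and 188 CPM in Rvb1, 195 and 173 in Rvb2, 253 and 164 in Pgk1, and 145 to 147 in the inputs. For both genes every pulldown lay above every input at the gene body, and Pgk1 replicate 1, the library with the fewest reads, was the highest of all.

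By library, 5, 5, 6 and 5 of the 10 promoters stood above the input of their own strain in Rvb1 replicates 1 and 2 and Rvb2 replicates 1 and 2, and 5 and 4 did so in Pgk1. Between 45.5% and 49.3% of all windows did so. At gene bodies the counts were 3, 3, 2 and 5 in the same Rvb libraries and 4 and 5 in Pgk1, beside 46.7% to 52.5% of all windows. The gene body medians of the 10 genes were -0.42 and -0.13 in Rvb1, -0.26 and -0.05 in Rvb2, and -0.18 and 0.01 in Pgk1. Those of all windows ran from -0.0318 in Rvb2 replicate 1 to 0.0054 in Pgk1 replicate 2. MDH2 stood out among all windows in each of the Rvb libraries: on the log2 scale its promoter was 1.04, 0.74, 0.92 and 0.50 above its own input, higher than 97.8%, 96.7%, 96.8% and 93.7% of all windows. The same value was 0.67 in Pgk1 replicate 1, higher than 92.2% of all windows, and close to 0 in Pgk1 replicate 2.

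Promoters can be shared. By gene order in the R64 reference table, 7 of the 10 genes have an upstream neighbour that runs the other way, so that a promoter window can cover sequence of both genes. The gene that faces FBP1 is the tRNA gene YNCL0047W, whose identifier is not in the files. The other 6 have a neighbour in the files, and the promoter values in Rvb1 over Pgk1 can be set beside each other. UBP15, a ubiquitin protease gene that faces ADH2, was called higher at 0.44 (SE 0.10, edgeR adjusted p = 0.0171), as ADH2 was. YOR389W, which faces FDH1, was called lower at -0.48 (SE 0.13, edgeR adjusted p = 0.0227), as FDH1 was. TRM13, a tRNA methyltransferase gene that faces MDH2, had 0.43 (SE 0.18, edgeR adjusted p = 0.0912), close to the 0.44 of MDH2.

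DCP2, the mRNA decapping enzyme gene that faces MLS1, was called higher at 0.38 (SE 0.12, edgeR adjusted p = 0.0360), while MLS1 had -0.13. FLC2, which faces ACS1, had 0.16 (SE 0.15), and SRY1, which faces JEN1, had 0.18 (SE 0.10). Whether the windows of each pair overlap was not checked. Where they do, the gene to which a promoter value belongs cannot be told apart. At gene bodies, which the neighbours do not share in this way, MDH2 had -0.44 and TRM13 -0.23 (SE 0.14), and FDH1 had -0.69 and YOR389W -0.25 (SE 0.11), while DCP2 was called higher at 0.47 (SE 0.11, edgeR adjusted p = 0.0300) beside -0.39 for MLS1.

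**Figure D4:**
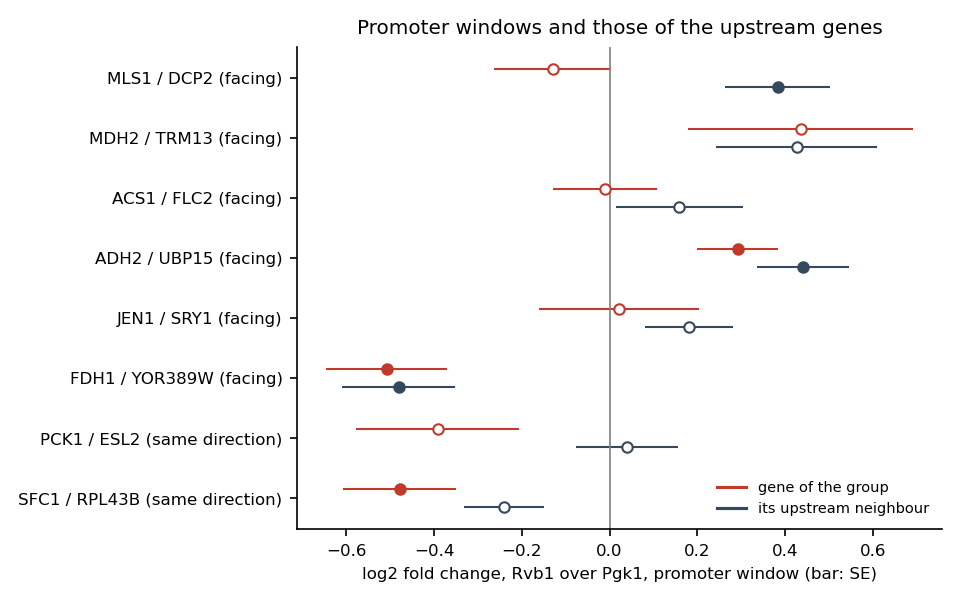
Promoter log2 fold change in Rvb1 over Pgk1 for 8 of the genes and for the upstream gene next to each, which faces it or runs in the same direction as marked, with bars of 1 SE. Filled points have an adjusted p under 0.05; ADH2 and UBP15 lie above 0 together, FDH1 and YOR389W below 0 together, and MLS1 and DCP2 on opposite sides.

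PCK1 and SFC1 follow a gene that runs in the same direction, ESL2 and RPL43B, whose promoters had 0.04 and -0.24 (SE 0.09, edgeR adjusted p = 0.0640). ICL1 follows the tRNA gene SUP19, also in the same direction, whose identifier is not in the files. By gene order JEN1, FDH1 and PCK1 lie nearest to a chromosome end, with 6, 7 and 9 genes between them and the end. Their promoter values in Rvb1 over Pgk1 were 0.02 (SE 0.18), -0.51 and -0.39. SFC1, which was called lower as FDH1 was, has 70 genes between it and the end. Whether the distance to the end bears on these values was not tested.

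Reads from near-identical copies may have been split or shared between genes, since the sources used here do not give the rule for reads with several matches in the genome. ADH2 closely resembles ADH1, the glycolytic alcohol dehydrogenase gene, whose gene body held 504 and 378 CPM in Rvb1, 457 and 323 in Rvb2, 726 and 221 in Pgk1, and 165 to 169 in the inputs. Pgk1 replicate 1 was the highest library at both ADH1 and ADH2 gene bodies, as it was at that of MDH2. Without that rule the ADH2 gene body values are uncertain, and whether reads of ADH1 entered them was not tested. FDH1 closely resembles FDH2, whose promoter held 58.6 and 104 CPM in Rvb1, 90.8 and 170.2 in Rvb2, and 119.6 and 147 in Pgk1. The FDH2 promoter had -0.87 in Rvb1 over Pgk1 (SE 0.24, edgeR adjusted p = 0.0257), the same direction as FDH1. DAL7, the malate synthase gene most like MLS1, had 0.12 (SE 0.13).

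A list of 50 further genes of the same metabolism was read beside the 10. It holds regulators of glucose repression, uptake carriers, enzymes of ethanol, acetate, glycerol and lactate use, carnitine and fatty acid enzymes, and the ligase that degrades gluconeogenic enzymes. At promoters 4 of the 50 were called higher in Rvb1 than in Pgk1 and 5 lower, beside 12.3% and 12.0% of all windows, and their median was 0.1259. MIG1, the glucose repressor gene, had 0.90 (SE 0.23, edgeR adjusted p = 0.0202), and VID28, a gene of the degrading ligase, 0.60 (SE 0.14, edgeR adjusted p = 0.0165). FDH2 at -0.87 and ICL2, a mitochondrial methylisocitrate lyase gene, at -0.49 (SE 0.12, edgeR adjusted p = 0.0179) were the lowest of the called genes.

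Among the other called promoters of that list, SNF1 at 0.57 and ATO3 at 0.48 were higher, and GID10, YAT2 and ADY2 lower. SNF1 encodes the kinase that opposes Mig1, and the activator genes CAT8 at -0.03 (SE 0.10) and ADR1 at -0.27 (SE 0.11) were not called at promoters. At gene bodies 2 of the 50 were called higher and 4 lower, with ADR1 lower at -0.44 (SE 0.13, edgeR adjusted p = 0.0391), beside 6.70% and 7.08% of all windows. In Rvb2 edgeR called 0 of the 50 in either window, with 11 promoters and 5 gene bodies at p under 0.05 before adjustment. DESeq2 called 2 of the 50 promoters there and 0 gene bodies. The difference between promoter and gene body in Rvb1 was called higher for 18 of the 50 and lower for 0, beside 24.5% and 3.80% of all genes, with MIG1 at 1.12 (SE 0.19), close to the 1.15 of MDH2.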

How the data were processed

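The authors deposited raw read counts per gene, 1 table for promoter and 1 for gene body windows of 500 bp. Bowtie2, SAMtools, Picard, bedtools, deepTools and FastQC are the tools named, with no role, per the submitters' processing notes. The sources used here do not give the genome build, where the windows lie or how duplicate reads were treated, so no coordinates or sequences are printed.

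Counts were fitted with edgeR 4.0.16 (R 4.3.3): filterByExpr, TMM scaling within each table, and the quasi-likelihood test in 1 fit of 9 libraries and 4 groups (5 residual degrees of freedom). The SE was derived from the test's p-value. Promoter and gene body counts were then fitted jointly, with a term for each library and the same library size for both windows. The scripts were tested on simulated data. Log2 levels over the own input used a prior count of 2. Symbols and gene order come from the R64 RefSeq table. The 10 genes, the 50 further genes and the tests were chosen with earlier results of these data known. All 10 genes and the neighbours they face are named, and of the 50 genes those with the largest called promoter changes in Rvb1; others of the 50 were named after their values were seen.

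At promoters, inputs 1 and 2 (the Rvb1 and Rvb2 strains) had a chi-square of 0.607 per degree of freedom, below Poisson sampling noise but above the 0.458 left by the ceiling, and were kept apart, with their average as an alternative. Other alternatives were other scalings, filters on low counts (none, or a mean count of at least 50), DESeq2 1.42.0, the pulldowns alone with and without the replicate number as a block, each pulldown relative to its own input, a correction for the ceiling, and each library left out.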

Additional observations from a re-analysis of the deposited data

How the results depend on the processing

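Of the values of single genes under the alternatives, 2348 kept their direction and their side of the threshold, 127 lost the call, 53 gained one and 23 changed sign; a change of sign of a value that lay within 1 SE of 0 in both fits and was not called is not counted. Of the counts of the 10 genes called, 230 stayed within 1.5 times the reported count and 71 did not. The counts of all windows called moved too: 184 stayed within that range and 117 did not. Except for the replicate block, the counts of the 10 genes below stand without the share of all windows in the same fit. A higher or lower count is therefore not a result about these genes. The cause of each change below was not tested, except that a fit with fewer libraries has fewer residual degrees of freedom.

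Counts of the 10 genes called, promoters first. Rvb1 over Pgk1 (3) gave 0 with the pulldowns alone, relative to the own input and with inputs 1 and 2 averaged. The mean of the Rvb proteins over Pgk1 (2) gave 0 with library totals, the pulldowns alone, the replicate block, the own input and averaged inputs, and 1 with the total over both windows, DESeq2 or the ceiling correction. Rvb1 over input (5) gave 0 relative to the own input, and Rvb2 over input (0) gave 1 with the total over both windows or DESeq2. At gene bodies Rvb1 over Pgk1 (1) gave 2 with the total over both windows and 0 with DESeq2, the own input, the ceiling correction or averaged inputs. Rvb1 over input (5) gave 3 with DESeq2 or the ceiling correction, 0 relative to the own input and 2 with averaged inputs. Pgk1 over input (0) gave 1 with DESeq2.

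With each library left out in turn, the counts ran from 0 to 4 for Rvb1 over Pgk1 at promoters and at gene bodies, 0 to 5 and 0 to 4 for the mean over Pgk1, 0 to 1 and 0 to 2 for Rvb1 over Rvb2, and 0 to 6 for Rvb1 over input in both windows. They ran from 0 to 2 for Rvb2 over input at promoters and for Pgk1 over input at gene bodies, and from 0 to 7 for the promoter minus gene body difference in Rvb1 and in the mean. The promoter count for Rvb1 over Pgk1 was 0 without Rvb1 replicate 1, Pgk1 replicate 2 or input 2. The gene body count was 4 and the difference count 7 without Rvb1 replicate 2. The difference count was 6 without Rvb2 replicate 1 or 2, 1 without input 3, and 0 without Rvb1 replicate 1, Pgk1 replicate 2, input 1 or input 2.

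The labels do not pair the pulldowns, and same-numbered pulldowns deviated together (correlations 0.226 to 0.727 over windows). With the replicate number as a block, 2 of the 10 promoters (SFC1 and FDH1) were called in Rvb1 over Pgk1, 0 higher, and ADH2 was not; at gene bodies 1 was called, FDH1 at -0.54, and counts over all windows were 1517 at promoters and 1475 at gene bodies, against 1708 and 969.

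Values that changed sign with another scaling were JEN1 gene bodies (Rvb1 over input -0.036 with library totals; with the total over both windows -0.19 there, -0.062 in Rvb1 over Pgk1 and -0.18 in Rvb2 over input) and the FDH1 gene body in Rvb2 over input (-0.22). Of the ranges over each library left out in turn that crossed 0, those with a counted change of sign are given here. At gene bodies, Rvb1 over Pgk1 ran from -0.40 to 0.16 for SFC1 and -0.27 to 0.11 for FBP1. Rvb2 over Pgk1 ran from -0.39 to 0.18 for ICL1, -0.37 to 0.14 for SFC1, -0.79 to 0.021 for MLS1 and -0.64 to 0.12 for MDH2. Rvb1 over Rvb2 ran from -0.28 to 0.29 for ICL1 and -0.31 to 0.37 for MLS1. Over input they ran from -0.030 to 0.21 for JEN1 in Rvb1, -0.52 to 0.053 for ICL1 and -0.43 to 0.24 for FDH1 in Rvb2, and -0.18 to 0.041 for ICL1 in Pgk1. At promoters, FBP1 ran from -0.20 to 0.18 in Rvb1 over Rvb2 and ACS1 from -0.14 to 0.19 in Pgk1 over input. The promoter minus gene body difference ran from -0.26 to 0.19 for SFC1 and -0.085 to 0.46 for PCK1 in Rvb1, and from -0.14 to 0.26 for SFC1 and -0.0095 to 0.63 for ACS1 in Rvb2.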
